A study of Mus musculus with 2 samples.

Results

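The urea cycle and perinatal amino acid enzymes described here are Cps1, Ass1, Asl, Arg1, Hpd, Tat and Fah. They were chosen by symbol among the transcripts named in the small RNA table, and all 7 of 7 listed symbols had rows, out of 16128 genes named in the RefSeq class. The material was fetal liver of B6/129 mice at stage E18.5. One group was wild type, and the other carried Ago2ADH, labelled as catalytically inactive Argonaute 2. Each group was 1 library of total RNA selected on a gel for 19 to 30 nt, so the spread between animals is unknown and no p-value is given. The labels do not say how many animals went into a library. Across the table the wild type library held 7599870 reads and the Ago2ADH library 7046197 reads.

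Mammalian liver detoxifies ammonia through the urea cycle. Cps1 makes carbamoyl phosphate in mitochondria, Otc passes it to ornithine, Ass1 and Asl build and split argininosuccinate in the cytosol, and Arg1 releases urea. Tyrosine is broken down by Tat, Hpd, Hgd, Gstz1 and Fah in turn, and many of these liver enzymes gain expression around birth. A library of RNA this short records pieces of longer RNAs. For reads on the mature transcript, a count reflects both how much mRNA was present and how it was cut, which cannot be told apart here. The listed counts also hold many reads on no annotated transcript, given below, so a listed ratio mixes both kinds. In whole liver, fewer cells of a type and less RNA per cell cannot be told apart either.

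The reads of these genes were scattered pieces and not stacks of a recurring small RNA. The 7 genes together held 3720 reads in the wild type library and 3588 in the Ago2ADH library, of 6071 distinct sequences, and 82.3% of the Cps1 sequences were read once over both libraries. The sequences below show this with coding pieces. Each is the most read sequence listed under the gene, within a library or over both, or the most read exon junction piece. Pieces in untranslated regions are not printed, although they were the most read over both libraries for Cps1 (3 and 5 reads), Asl (0 and 4) and Arg1 (0 and 6). They are read from the deposited table and placed by exact match on GENCODE M21 transcripts (GRCm38), 5′ to 3′. In the junction pieces, capitals mark the bases of the downstream exon.

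Cps1, exon 9: gccattgtttggaatcagtacagga
Cps1, exons 5 to 6: aattcgggataagGGTACCA
Ass1, exon 14: aagggaaggtgcaggtgtctgtcttc
Ass1, exons 15 to 16: gctcagGCTGAAGGAGTACCATCGCC
Hpd, exon 9: aacccgaccaagaaatgcagt
Fah, exon 2: aacacctctttaccggacctgccctttcca
Fah, exons 3 to 4: tcggcagcgTGCATTCACCTCCCA

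The Cps1 exon 9 piece (chromosome 1, 67156847 to 67156871, plus strand, coding) had 5 reads in the wild type library and 0 in the other. The Cps1 junction piece had 7 and 0 reads. The Ass1 exon 14 piece (chromosome 2, 31514745 to 31514770, plus strand, coding) had 2 reads in each library. It has 2 genome matches, so these reads cannot be assigned to this place alone. Counts this small carry no comparison between the libraries, and they show how thinly each gene's reads were spread. The Hpd piece (chromosome 5, 123177542 to 123177562, minus strand, coding) and the Fah exon 2 piece (chromosome 7, 84602104 to 84602133, minus strand, coding) each had 3 wild type reads and 0 Ago2ADH reads. The Fah junction piece had 2 and 0 reads.

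Among the sequences listed under each gene, the most read over both libraries took 0.193% of the reads of Cps1 and 0.248% of Ass1. For Fah it took 0.665%, for Hpd 0.711% and for Arg1 1.10%. The median over the 5913 RefSeq genes with 50 or more reads was 3.03%. Genes with few reads cannot reach shares as small as those of Cps1 and Ass1, which had 4152 and 1612 reads. This median was not matched for read number. In Asl and Tat, with few reads, the top sequence took 4.17% and 6.45%, or 4 and 2 reads. Pieces of 20 to 24 nt made up 42.1% (95% Clopper-Pearson interval 39.9 to 44.2) of Cps1 reads in wild type and 41.8% (39.7 to 43.9) in Ago2ADH. Over all RefSeq reads these shares were 36.4% and 37.3%.

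Levels were counted as reads per 1000000 (RPM), that is, reads listed under a gene over all reads of the library. Ratios are given on the log2 scale as Ago2ADH over wild type, with an exact conditional 95% interval. PCR products without molecular identifiers are not independent molecules, so all intervals here cover counting error only. A gene was held to be past the size rule when it had 50 or more reads over both libraries, a ratio of 0.5 or less or of 2 or more, and an interval that excluded 1. None of the 7 genes was past this rule, against 1.81% of the 5913 genes tested (0.93% lower and 0.879% higher). Tat had too few reads to be tested, so 6 of the 7 entered.

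Cps1 took the most reads of the urea cycle genes. Its 2082 wild type reads and 2070 Ago2ADH reads correspond to 274 RPM (Poisson interval 262 to 286) and 294 RPM (281 to 307). The log2 ratio was 0.10 (0.01 to 0.19), with an interval just above 0. Ass1, which joins citrulline and aspartate, had 828 and 784 reads, 109 RPM in wild type and 111 RPM in Ago2ADH. Its log2 ratio of 0.03 (-0.11 to 0.17) was within counting error. Asl had only 47 and 49 reads, and its log2 ratio of 0.17 (-0.44 to 0.78) leaves a wide range.

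Arg1 was the 1 gene of the 7 with fewer RPM in Ago2ADH. It had 308 reads in wild type, 40.5 RPM (36.1 to 45.3), and 236 in Ago2ADH, 33.5 RPM (29.4 to 38.1). The log2 ratio of -0.28 (-0.53 to -0.03) lay below 0 beyond counting error, but with only reads of 25 nt or longer it was 0.074 (-0.39 to 0.54), where the median of all genes tested was 0.22. Its interval stayed below 0 in 4 of 11 alternatives, and scaled to RefSeq reads it was -0.19 (-0.44 to 0.06). For Cps1 the interval lay above 0 in 8 of 11. Of the 5913 genes, 7.17% had an interval below 0 and 7.88% one above 0, and among the 6 enzymes tested there was 1 of each, Arg1 and Cps1.

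For Hpd, Fah and Tat the intervals of the listed reads included 0. Hpd, which turns hydroxyphenylpyruvate into homogentisate, had 207 and 215 reads and a log2 ratio of 0.16 (-0.12 to 0.45). Fah, which performs the last step of tyrosine breakdown, had 232 and 219 reads, its log2 ratio being 0.03 (-0.25 to 0.30). Tat, the aminotransferase that starts the pathway, had 16 and 15 reads, and its interval of -1.10 to 1.13 includes changes past 2-fold in either direction. The 7 genes summed to 489 RPM in the wild type library and 509 RPM in the Ago2ADH library, for a ratio on the log2 scale of 0.06 (-0.0096 to 0.12), and Cps1 gave 56.8% of those reads.

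**Figure D1:**
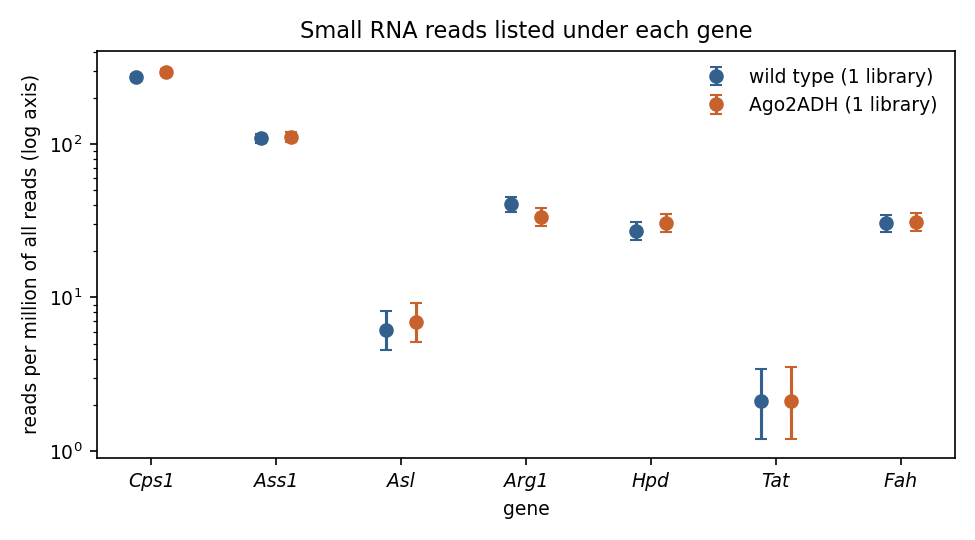
RPM (log axis) for each gene in the wild type and the Ago2ADH library, with bars for the exact Poisson 95% interval. The paired points lie close together in every gene, and those of Arg1, at 40.5 and 33.5 RPM, are the 1 pair in which Ago2ADH is the lower.

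The reads were then placed by exact match on the mature transcript linked to each RefSeq entry. This shows which reads the deposited listing leaves out. All sequences of the RefSeq class match the genome. Except for Ass1, most pieces that span an exon junction had 0 genome matches and stood in the non-genomic class. For Cps1 (chromosome 1, 67123026 to 67231259, 38 exons) 275 wild type and 305 Ago2ADH reads of that class spanned a junction, with a log2 ratio of 0.26 (0.02 to 0.50). These reads were not part of the gene's listed count. A further 102 and 104 reads on the Cps1 transcript had no class, of which 94 and 101 lay in the 3′ UTR, near its end.

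Ass1 was listed differently from the other 6. The table holds EG432466, a transcribed pseudogene now named Gm5424 (chromosome 10, 62071022 to 62072571), with 243 wild type reads and 236 Ago2ADH reads. Of these reads, 99.8% matched the mature Ass1 transcript exactly, and 162 wild type and 141 Ago2ADH reads spanned an Ass1 exon junction. The exon 15 to 16 piece printed above is such a read, with 6 and 0 reads and 1 genome match. Only 10 and 22 junction reads of Ass1 were non-genomic. Because 47.5% of the reads listed under Ass1 match the genome more than once, the gene and its pseudogene cannot be told apart for them. Summed, they had 1071 and 1020 reads and a log2 ratio of 0.04 (-0.09 to 0.16).

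**Figure D2:**
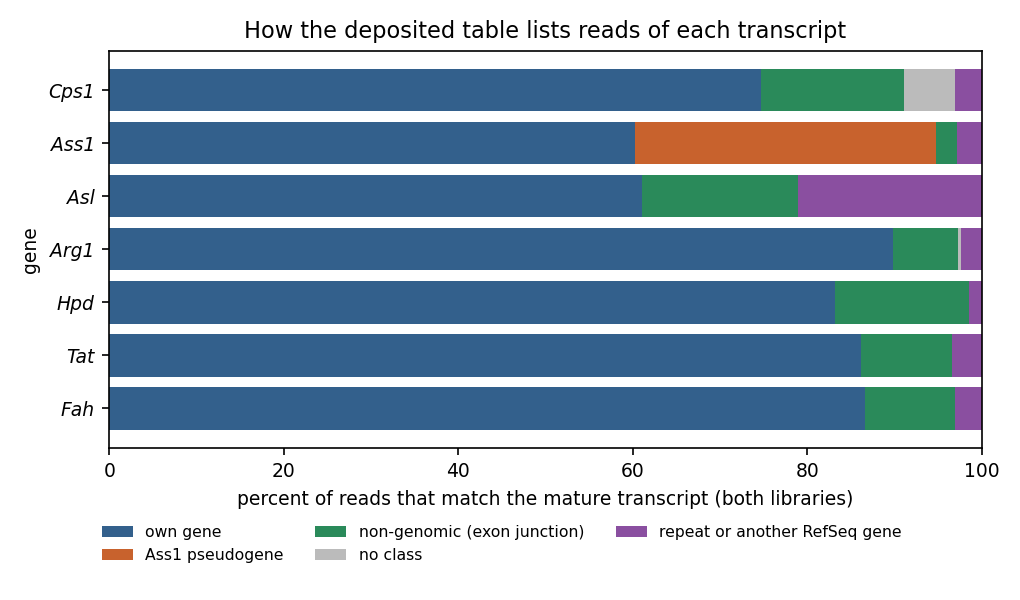
Share of the reads matching each mature transcript, both libraries together, by how the deposited table lists them. Reads listed under the pseudogene take 34.5% of the Ass1 bar and occur in no other, while non-genomic junction reads take 16.4% of the Cps1 bar and 2.31% of the Ass1 bar.

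With junction reads added, and for Ass1 those of the pseudogene (reads listed in other classes are not counted), levels per kilobase of mature transcript can be compared between genes. In wild type the order was Ass1 at 55.1 RPM per kb (51.1 to 59.3), Cps1 at 36.9 (35.1 to 38.8), Arg1 at 26.5 (23.5 to 29.6), Hpd at 16.9 (14.5 to 19.5), Fah at 14.3 (12.2 to 16.6), Asl at 2.02 (1.42 to 2.78) and Tat at 0.720 (0.383 to 1.23). Only the intervals of the neighbours Hpd and Fah overlapped. The order in Ago2ADH was the same, with Ass1 at 53.1 RPM per kb, Cps1 at 42.6, Arg1 at 22.9, Hpd at 16.7 (14.2 to 19.4), Fah at 9.85 (8.09 to 11.9), Asl at 2.23 and Tat at 0.896. There the intervals of Hpd and Fah did not overlap. The first place of Ass1 rests on the reads listed under the pseudogene. Without them, a count added after seeing the data, Ass1 was at 36.3 RPM per kb (33.1 to 39.8) in the wild type library, overlapping Cps1, and at 33.4 (30.2 to 36.8) in the Ago2ADH library, below Cps1. The Asl level rests on a linked transcript of 2413 nt with a 5′ UTR of 966 nt.

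A large part of the listed reads lay on no annotated transcript of their gene. For Cps1 these were 38.4% of the wild type reads (36.3 to 40.6) and 34.2% of the Ago2ADH reads (32.1 to 36.2). For Ass1 they were 43.8% and 51.3%, for Fah 34.9% and 51.6%, for Hpd 22.2% and 30.2%, and for Arg1 9.42% and 7.63%. Over all RefSeq reads the shares were 34.3% and 37.9%. The listed counts also hold antisense reads, which match the opposite strand of a transcript. They numbered 5 and 7 of the 47 and 49 Asl reads, 5 and 0 for Hpd, and 0 for the other enzymes. Over all RefSeq reads 1.04% and 1.40% were antisense. None of the unplaced reads of the 7 genes came within 1 mismatch of the mature transcript. Introns were not analysed here, so whether these reads are intronic was not tested.

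Reads on the transcript and unplaced reads of Fah went in opposite directions. On the mature transcript (chromosome 7, 84585159 to 84605942, minus strand, 14 exons) Fah had 148 wild type reads against 104 from Ago2ADH, and the log2 ratio was -0.40 (-0.78 to -0.03). Its unplaced reads numbered 81 and 113, and their log2 ratio was 0.59 (0.17 to 1.02). The non-genomic junction reads, which the listing does not count for Fah, numbered 24 and 6, with a log2 ratio of -1.89 (-3.47 to -0.56). Such reads were not counted over all genes, so no share stands beside this value. Cps1 at 0.26 and Ass1 at 1.25 (0.11 to 2.49, on 10 and 22 reads) lay above 0, and the intervals of Asl, Arg1 and Hpd included 0. Over all its junction reads Ass1 was at 0.01 (-0.30 to 0.33). With the junction reads added, the Fah transcript value was -0.54 (-0.89 to -0.18), against 0.03 for the listed reads. Of 2960 genes with 50 or more reads on the mature transcript, 9.22% had an interval below 0, 5.57% one above 0, and 2.09% were past the size rule. Of the 6 enzymes that entered, Fah lay below, Cps1 above at 0.20 (0.09 to 0.31), and 0 were past the rule. Of 2778 genes with 50 or more unplaced reads the shares were 5.29%, 10.3% and 2.59%. Of the 4 enzymes that entered, 3 lay above, namely Fah, Hpd at 0.61 (0.04 to 1.19) and Ass1 at 0.26 (0.05 to 0.47), and 0 were past the rule.

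The odds of mature to unplaced reads were compared between the libraries for tested genes with 20 or more reads of each kind, a comparison chosen after these values were seen. For Fah the log2 odds ratio was -0.98 (-1.53 to -0.44), and for Ass1 it was -0.43 (-0.71 to -0.14). With the pseudogene and junction reads counted for Ass1 it was -0.31 (-0.56 to -0.05). Cps1 lay on the other side at 0.27 (0.08 to 0.45), with mature reads at 1282 and 1363 and unplaced reads at 800 and 707. For Hpd it was -0.60 (-1.24 to 0.03) and for Arg1 0.33 (-0.54 to 1.21). Of the 3748 genes that entered, 7.34% had an odds interval below 0 and 3.12% one above 0, with a median of -0.12. Of the 5 enzymes that entered, 2 lay below and 1 above.

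**Figure D3:**
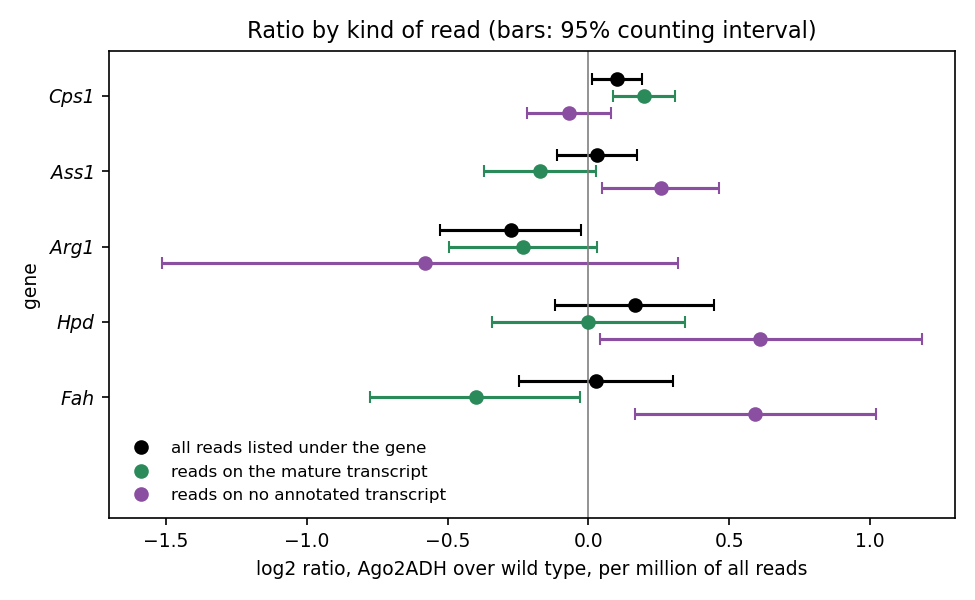
Log2 ratio of Ago2ADH over wild type in RPM, for all listed reads, for reads on the mature transcript and for reads on no annotated transcript, with exact 95% counting intervals, in the 5 genes with 20 or more reads of each kind. Fah shows the widest gap, with -0.40 on the transcript and 0.59 off it. For Cps1 the order is turned, with 0.20 and -0.07, and for Arg1 too, with -0.23 and -0.58 (-1.51 to 0.32).

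The coding part held 88.8% of the wild type reads on the Cps1 transcript and 87.0% of the Ago2ADH reads, and it makes up 81.0% of the transcript. With the reads of no class counted, also added after seeing the data and mostly in the 3′ UTR, the shares were 83.8% (82.0 to 85.6) and 82.1% (80.2 to 83.8). Hpd pieces were also mostly coding, with 92.2% and 87.3%, beside 84.0% of the transcript length. Arg1 had the largest share of reads outside the coding part among the genes with over 100 reads in each library, with 35.7% (30.2 to 41.4) in the 3′ UTR in wild type and 44.1% (37.7 to 50.7) in Ago2ADH. By length its transcript is 65.6% coding, the smallest coding share of these genes, and 26.5% 3′ UTR. The 5′ UTR of Arg1 had 31 wild type reads and 9 Ago2ADH reads, shares of 10.4% (7.20 to 14.5) and 3.78% (1.74 to 7.06) whose intervals did not overlap. This contrast was noticed among 3 regions of 7 genes.

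**Figure D4:**
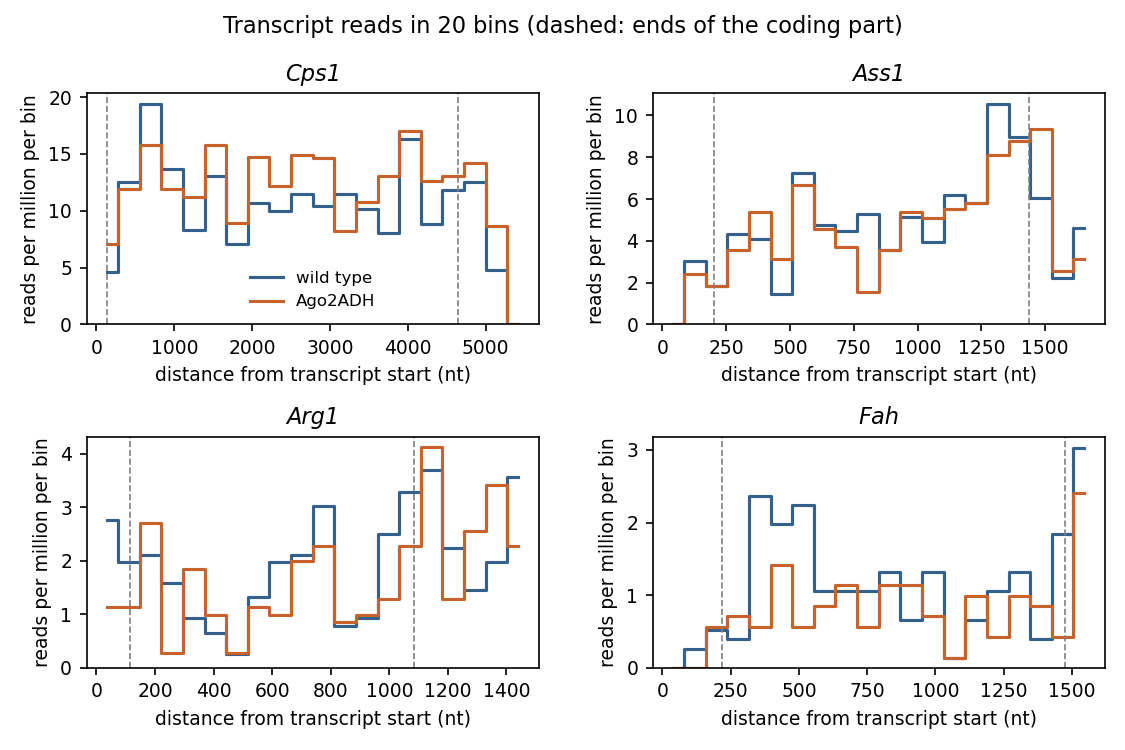
RPM in 20 equal bins along the mature transcripts of Cps1, Ass1, Arg1 and Fah, with junction reads included, and dashed lines at the ends of the coding part. Both libraries have reads in all Cps1 bins but the last, which has 0 counted reads. The bins leave out the 102 and 104 Cps1 reads of no class. The median position of those sequences was 5353 of 5555 nt, within that last bin. Single bins differ in either direction, and the examples here were picked from all bins shown. Bin 5 of Fah holds 18 wild type and 4 Ago2ADH reads, bin 10 of Ass1 40 and 11, and bin 18 of Ass1 46 and 66.

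The rest of the pathway was read from lists of genes. Of 13 genes for the urea cycle and ammonia handling, 11 had 50 or more reads and 0 were past the size rule. Over all 5913 genes 1.81% were past it. The median log2 ratio of the 11 genes was 0.10, beside -0.0005 over all 5913 genes. Glul, which makes glutamine from ammonia, had 458 and 643 reads and stood at a log2 ratio of 0.60 (0.42 to 0.77). Slc25a13, the mitochondrial aspartate carrier that feeds Ass1, had 635 and 782 reads, at 0.41 (0.26 to 0.56). Together with Cps1 these were the 3 genes of the list with an interval above 0, and Arg1 was the 1 below, beside 7.88% above and 7.17% below over all 5913 genes. Glud1, which releases ammonia from glutamate, was at -0.12 (-0.27 to 0.04), and Otc had 97 and 92 reads, at 0.03 (-0.39 to 0.46).

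Of 8 genes for phenylalanine and tyrosine breakdown, 7 were tested, 0 were past the rule and all 7 intervals included 0. The median was 0.16, and it was -0.02 when only reads on the mature transcript were counted. Over all 5913 genes, by listed reads, 1.81% were past the rule, 7.17% had an interval below 0 and 7.88% one above 0. Gstz1, which acts directly before Fah, had 107 and 112 reads, at 0.18 (-0.22 to 0.57).

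Of 30 other liver amino acid enzymes, 25 were tested and 0 were past the rule, with 3 intervals below 0 and 4 above, where all genes gave 1.81% past the rule, 7.17% below and 7.88% above. Mat1a, which makes S-adenosylmethionine, had 687 and 479 reads, at -0.41 (-0.58 to -0.24), and Bhmt, which remethylates homocysteine, had 719 and 588 reads, at -0.18 (-0.34 to -0.02). In the same methionine pathway Ahcy had 297 and 340 reads, at 0.30 (0.08 to 0.53), and Cth had 192 and 252 reads, at 0.50 (0.22 to 0.78). The list's median was 0.18.

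Of 5 genes for perinatal gluconeogenesis 0 were past the rule, against 1.81% of all genes tested. Their median log2 ratio was -0.04. Of their intervals 2 lay above 0 and 0 below, against 7.88% and 7.17% of all genes tested. Fbp1 was at 0.27 (0.09 to 0.46), Pcx at -0.04 (-0.23 to 0.16), G6pc at -0.28 (-0.66 to 0.10) and Ppargc1a, a coactivator of these genes, at 0.50 (0.00158 to 1.01). Of 7 transcription factors known to act on liver metabolic genes, 6 were tested and 0 were past the rule, against the same 1.81%. The list's median log2 ratio was 0.11. Hnf4a was at -0.07 (-0.31 to 0.16), Cebpa at 0.26 (-0.00452 to 0.53), Nr3c1 at -0.04 (-0.37 to 0.29) and Cebpb, with 30 and 53 reads, at 0.93 (0.26 to 1.63), the 1 interval of this list above 0.

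**Figure D5:**
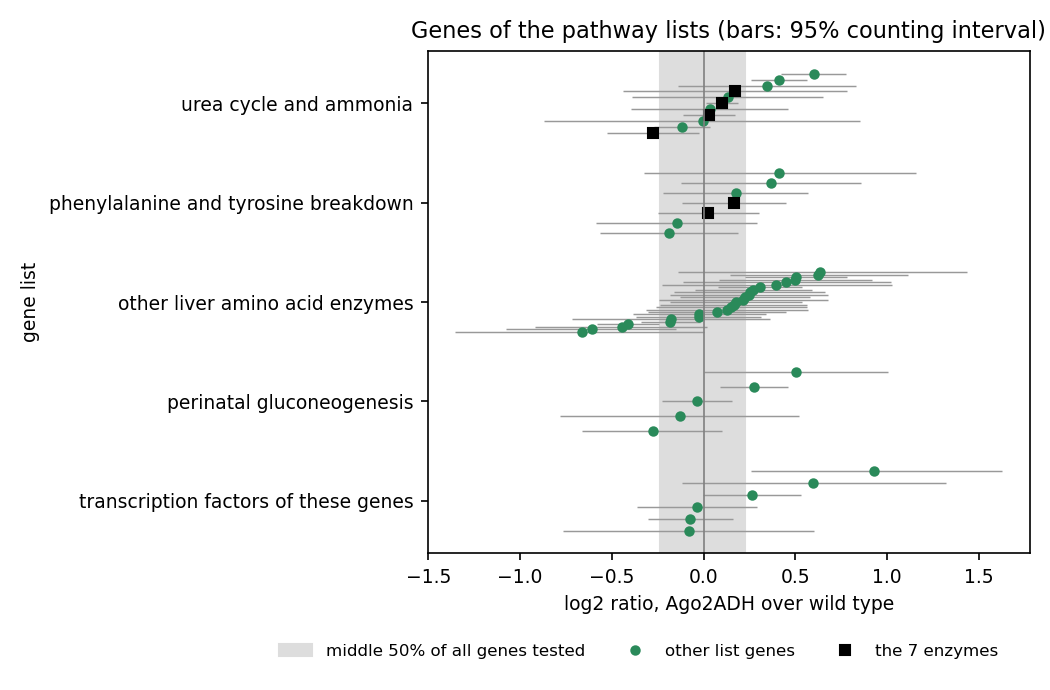
Log2 ratio of Ago2ADH over wild type with exact 95% counting intervals for the list genes with 50 or more reads. Squares are Cps1, Ass1, Asl, Arg1, Hpd and Fah (Tat had too few reads), and the grey band is the middle 50% of the 5913 genes tested, from -0.24 to 0.23. No point lies beyond 1 in either direction.

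Marker fragments show what else differed between the libraries. The 7 hepatocyte markers with rows, led by Alb, summed to 8358 RPM in wild type and 7978 RPM in Ago2ADH. Their median log2 ratio was -0.07, and 5 of 7 intervals lay below 0, against 7.17% of all genes tested. High counts make such intervals narrow, with Alb at -0.04 (-0.06 to -0.02) on 40362 and 36365 reads. Serpina1a at -0.88 and Fgb at -0.39 were lower by more. Scaling to RefSeq reads shifts every ratio up by 0.09, more than the size of that median. The 10 erythroid markers summed to 1844 and 1176 RPM, with 7 of 10 intervals below 0, against the same 7.17%, and a median log2 ratio of -0.58. Spna1, an erythroid spectrin, was past the size rule with 125 and 50 reads, at -1.21 (-1.72 to -0.73). The 7 myeloid markers with rows summed to 58.8 and 59.6 RPM, and all 5 tested intervals included 0. Cd68, with too few reads to be tested, had 1 and 15 reads, at 4.02 (1.32 to 9.41). The 8 endothelial and stellate markers summed to 41.4 and 37.5 RPM (median log2 ratio -0.42 over the 6 tested, with 1 interval below 0). The 5 bile duct markers with rows summed to 2.76 and 4.83 RPM, among them Sox9 at 7 and 16 reads, Spp1 at 4 and 11, and Krt19 at 1 and 0. The part of cell makeup in the ratios of the 7 enzymes was not tested.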

How the data were processed

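Small RNA of 1 wild type and 1 Ago2ADH fetal liver library was analysed. The authors deposited raw read counts per distinct sequence (2344366 sequences of 15 to 34 nt), with a genome match number, a class and a name, per the file headers. The aligner and genome build were not given in the sources used here, nor was any trimming. No further sample columns (0) were present.

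Counts of RefSeq-class sequences were summed by the symbol in the name and scaled to all reads. Of 17234 accessions, 16810 were linked to GENCODE M21 transcripts, on which reads were placed by exact match. Intervals are exact conditional binomial, Clopper-Pearson, Poisson or, for odds with 0.5 added, Woolf. The size rule was tested on simulated Poisson counts. These hold no spread between animals, so the test does not show how the rule behaves with such spread. TMM came from edgeR 4.0.16, the rest from Python 3.11.15 with scipy 1.17.1. Named genes are the 7 enzymes, list genes past the size rule and the 4 with most reads per list; others were chosen after their values were seen. A gene that the rule names is not reported here. Members and lists were chosen with earlier results of these data known. Alternatives were other scalings, read subsets, read minimums and a 1.5-fold limit.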

Additional observations from a re-analysis of the deposited data

How the results depend on the processing

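No paired analysis was possible because each genotype had 1 library, so no library could be left out either. Over 11 alternatives each, 12 for Ass1, no enzyme passed the size rule, and the ratios of Cps1 and Asl kept their sign. With only reads of 25 nt or longer, where the median of all genes tested was 0.22, Arg1 turned to 0.074, and Cps1 was at 0.25, Ass1 at 0.30 and Fah at 0.45. With only reads on the mature transcript, chosen after seeing the data, Cps1 was at 0.20, Ass1 at -0.17 and Fah at -0.40. With junction reads added, also chosen after seeing the data, Cps1 was at 0.21 and Fah at -0.54. Ass1 changed sign in 2 alternatives, Fah in 3 and Hpd in 1. Tat changed sign in 6 of 11, and its 31 reads set no direction.

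Of the 5913 genes tested, 55 were lower and 52 higher. Scaled to RefSeq reads, which shifts every ratio by 0.09, the numbers were 32 and 86, and scaled to all reads but miRNAs 38 and 77. Read subsets changed the number of genes tested. With reads of 25 nt or longer the numbers were 9 and 79 of 1814 genes, and with reads of 20 to 24 nt 41 and 29 of 2632. Distinct sequences gave 24 and 30 of 5244, and mature transcripts 41 and 21 of 2960. Without each gene's most abundant sequence they were 50 and 35 of 5629. A minimum of 20 reads gave 190 and 172 of 9550, and a minimum of 100 gave 17 and 13 of 3329. A 1.5-fold limit gave 237 and 264 of 5913. Among the lists, reads of 25 nt or longer gave the other liver amino acid enzymes a median of 0.59 with 1 gene past the rule, and the transcription factors a median of -0.087. Scaling to RefSeq reads and counting mature transcripts each put 1 transcription factor past the rule. The read subsets and the minimum of 100 reads left fewer genes to test, and the minimum of 20 left more. The causes of these shifts were not tested. Depth limits Asl and Tat most.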
